A study of Mus musculus with 8 samples.

Results

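The genes described here are Lmo4, Trpm1, Lysmd2, Susd2, Pou2af1, Spock2, Kcnc1 and Myl1. They are 8 of the 12665 genes listed in vivo, and 13073 genes are listed in either system. They were chosen by their low p-values for a fall in thymocytes sorted directly from mice labelled as Bcl6 knockouts, and among all falls in that comparison they rank 1, 3, 6, 8, 9, 10, 11 and 12 by p. The in vivo fold changes therefore chose the genes and are given as a description without a test. The in vitro libraries took no part in the choice and supply the tests.

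All libraries are bulk RNA sequencing of mouse thymocytes, and all mice carry loxP-flanked Bcl6 alleles (Bcl6fl/fl). The libraries labelled WT carry these alleles alone, and those labelled KO carry the Cd4cre transgene as well (Bcl6fl/fl Cd4cre), in which recombination is driven by Cd4 regulatory sequence. In the in vivo system, CD4-CD8-CD5+TCRb+ thymocytes, labelled agonist-p, were sorted directly, with 2 libraries per genotype. In the in vitro system, CD4+CD8+ thymocytes were stimulated for 24 h with antibodies against CD3 and CD28, each at 8 µg/ml, and DN cells, which lack both CD4 and CD8, were then sorted, again with 2 libraries per genotype. The age and number of animals behind each library were not stated in the sources used. Whether the replicates are separate animals or cultures is not stated either, so errors and p-values reflect only how much these samples vary, which may be technical. In vivo libraries were made by BGI Genomics and in vitro libraries by Novogene, so system and company cannot be told apart.

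BCL6 is a zinc-finger repressor of transcription. Some self-reactive thymocytes receive a strong T cell receptor signal, lose CD4 and CD8, and mature into the CD8αα intraepithelial lymphocytes of the gut. Of the genes described here, LMO4 is a small adaptor made of LIM domains that joins transcription factors to the cofactor LDB1, and POU2AF1 (also called OCA-B or OBF-1) is a coactivator that binds the octamer factors OCT1 and OCT2 on DNA. TRPM1 is a cation channel best known from retinal bipolar cells and melanocytes, and KCNC1 is the voltage-gated potassium channel Kv3.1 of fast-firing neurons. SUSD2 is a membrane protein with a sushi domain, SPOCK2 is the secreted proteoglycan testican-2, LYSMD2 carries a LysM domain, and MYL1 is an alkali light chain of fast skeletal muscle myosin.

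Total counts ranged from 14754440 to 23975636 per library. In vivo, Bcl6 was at 11.5 and 13.9 FPKM (fragments per kilobase of gene, scaled to library size) under the WT label against 8.81 and 14.4 under the KO label. In vitro it was at 24.9 and 21.9 FPKM under the WT label against 64.6 and 61.0 under the KO label, against the direction of the label. Gene-level counts do not separate the deleted exons, so Bcl6 does not check the labels. Directions are given as the KO label relative to the WT label throughout. Among 10 listed T cell genes such as Cd3e and Lck, summed FPKM in vivo lay between 1522 and 1853, while Cd4 itself was at 26.8 and 55.0 FPKM under the WT label against 22.8 and 78.4 under the KO label. The CD8 gene Cd8a was at 1.17 to 3.49 FPKM in vivo and at 7.26 to 10.9 in vitro, and Cd4 mRNA was thus present in cells sorted as lacking the protein. The other CD8 gene, Cd8b1, was at 4.03 and 4.90 FPKM in vivo under the WT label against 7.82 and 14.9 under the KO label. The groups did not overlap (log2 fold change 1.34, SE 0.32, edgeR adjusted p = 0.131). In vitro edgeR called all 3 genes, against 37.8% of all genes. Cd4 and Cd8b1 rose by 0.72 and 0.76 (adjusted p = 0.00017 and 0.0143), and Cd8a fell by 0.42 (adjusted p = 0.0081). The call was lost in 1 of 14 alternatives for Cd4, 2 for Cd8a and 3 for Cd8b1. The 2 KO-labelled libraries in vivo were also higher for 23 proliferation genes, with a summed FPKM of 467 and 284 against 230 and 170 under the WT label, and KO replicate 1 was apart from the rest for 9 myeloid genes (148 against 16.7 to 36.4). None of the 23 passed edgeR in vivo at an adjusted p under 0.05, against 1.1% of all genes. At an unadjusted edgeR p under 0.05 there were 21 of the 23 (14.1% of all genes). DESeq2 called 16, all higher under the KO label (4.94% of all genes called), and limma 0 (0.665%). In vitro the proliferation sum was 209 and 204 under the KO label against 159 and 151. There 11 of the 14 tested proliferation genes rose and none fell by edgeR, where 20.1% of all genes rose and 17.7% fell. The expression filter for a test was 1 FPKM in at least 2 libraries of the system. Mki67, Plk1, Kif11 and Kif20a reached it in vitro only under the KO label, and Ccnb1 and Cenpf did so in vivo. The filter therefore favours rises in these counts. The part of all these differences between labels in the results below was not tested. In bulk RNA, fewer cells that express a gene and less RNA per cell cannot be told apart.

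The start regions of the genes were read from RefSeq promoters of build GRCm38.p6, each from 250 bases before to 50 bases after a transcription start. Of the 8 genes, 6 matched, with 9 start regions between them. Their CpG content spans a wide range, and 4 are shown because they mark its ends (Lmo4 and Trpm1), the region of a gene whose usual context is the B cell (Pou2af1) and the only E-box match found (Myl1). Capitals mark matches to GCGNGGGCG, a motif bound by the EGR factors, in Lmo4 and to CAGCTG, an E-box, in Myl1.
Lmo4, chr3:144205206-144205505, minus strand: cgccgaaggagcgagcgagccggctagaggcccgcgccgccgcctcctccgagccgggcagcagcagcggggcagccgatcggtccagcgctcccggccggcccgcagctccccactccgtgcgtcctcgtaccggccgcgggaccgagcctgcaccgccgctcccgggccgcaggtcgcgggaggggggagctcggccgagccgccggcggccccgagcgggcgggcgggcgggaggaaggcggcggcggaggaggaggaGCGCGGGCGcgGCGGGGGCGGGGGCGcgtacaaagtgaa
Trpm1, chr7:64153585-64153884, plus strand: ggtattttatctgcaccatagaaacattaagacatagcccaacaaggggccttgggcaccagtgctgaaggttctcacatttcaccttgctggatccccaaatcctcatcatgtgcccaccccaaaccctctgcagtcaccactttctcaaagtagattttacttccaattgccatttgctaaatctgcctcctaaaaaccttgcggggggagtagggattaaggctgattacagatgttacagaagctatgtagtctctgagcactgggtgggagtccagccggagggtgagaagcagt
Pou2af1, chr9:51213440-51213739, plus strand: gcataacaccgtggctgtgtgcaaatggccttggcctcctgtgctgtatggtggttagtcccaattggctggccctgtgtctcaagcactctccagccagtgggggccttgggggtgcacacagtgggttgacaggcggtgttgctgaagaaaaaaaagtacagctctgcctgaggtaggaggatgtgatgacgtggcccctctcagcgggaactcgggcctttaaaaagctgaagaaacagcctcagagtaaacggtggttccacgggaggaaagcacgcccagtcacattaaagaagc
Myl1, chr1:66945007-66945306, minus strand: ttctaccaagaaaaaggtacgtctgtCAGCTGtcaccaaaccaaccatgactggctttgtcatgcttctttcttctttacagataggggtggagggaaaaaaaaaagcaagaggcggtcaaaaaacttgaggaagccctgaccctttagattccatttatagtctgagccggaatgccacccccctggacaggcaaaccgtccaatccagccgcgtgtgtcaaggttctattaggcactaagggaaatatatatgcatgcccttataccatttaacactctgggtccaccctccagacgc

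The Lmo4 region shown had 81.3% G or C and 52 CpG dinucleotides, and the Trpm1 region shown 48.3% and 2. Other start regions of Lmo4 had 73.7% and 30, and 72.7% and 31, without a match to any motif searched. Another of Trpm1 had 57.3% and 6. The Pou2af1 region had 55.3% and 8, and the Myl1 region 47.3% and 7. Over all 32851 promoters in the table the medians were 52.7% and 7. Searched on both strands, GCGNGGGCG occurred 3 times in the Lmo4 region shown, with 2 of the matches overlapping each other, and in 5.55% of all promoters. CAGCTG occurred once in Myl1 and in 16.3% of all promoters. No match was found in the 9 regions for TTCCTAGAA, a consensus for BCL6 (0.411% of all promoters), TTCNNNGAA, which contains it and is the form bound by STAT factors (8.3%), the octamer ATGCAAAT (1.74%), the NR4A element AAAGGTCA (1.51%), the AP-1 element TGANTCA (7.81%), the E-box CACCTG (20.2%) or the RUNX core TGTGGT (16.8%). These counts say only which letters stand in these windows.

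Lmo4 (chromosome 3, 144188530 to 144205220, minus strand) had the lowest p of all in vivo falls. Its counts were 2503 and 2382 under the WT label against 805 and 857 under the KO label, or 42.4 and 41.9 FPKM against 14.9 and 15.2. Replicates lay within 1 FPKM of each other in both groups and the groups were far apart. The mean was 2.80 times as high under the WT label (log2 fold change -1.49, SE 0.09, n = 2 per group). It was the smallest of the 8 fold changes: by size alone Lmo4 ranked only 98th among 5211 falls. Under the WT label its level exceeded that of 91.8% of listed genes, and under the KO label that of 71.4%. In vitro, Lmo4 was at 6.15 and 7.82 FPKM under the WT label against 6.58 and 7.06 under the KO label, so that the groups overlapped. The log2 fold change was 0.00 (SE 0.13, normal-approximation 95% interval -0.25 to 0.25), with an adjusted p of 0.99 by the edgeR quasi-likelihood test.

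Pou2af1 (chromosome 9, 51213708 to 51240080, plus strand) is the other transcriptional cofactor. In vivo it had 570 and 660 counts under the WT label against 192 and 176 under the KO label. In FPKM these were 13.4 and 16.1 against 4.93 and 4.31, with no overlap and a mean 3.19 times as high under the WT label (log2 fold change -1.68, SE 0.15, n = 2 per group). In vitro the FPKM were 10.2 and 8.98 under the WT label against 7.85 and 6.65 under the KO label. All KO-labelled values were the lower ones, and the fall of 0.39 on the log2 scale (SE 0.12) passed the edgeR test at an adjusted p of 0.0291. The call ended without WT replicate 1 (adjusted p = 0.202), without KO replicate 2 (0.146), with DESeq2 (0.0647) and when all 8 libraries were fitted together (0.0542), and the adjusted p ran from 0.00388 to 0.202 over all alternatives.

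Pou2af1 is widely used as a B cell gene, so the B cell list was read beside it. In vivo, the B cell receptor chain gene Cd79a was at 5.21 and 1.49 FPKM under the WT label against 9.66 and 6.0 under the KO label, and Ms4a1, which encodes CD20, was at 0.879 and 0.191 against 2.13 and 1.49. These genes were higher in the libraries where Pou2af1 was lower, and within the WT label Pou2af1 was higher in replicate 2, where they were lower. Within the KO label Pou2af1 and these genes were both higher in replicate 1. Of 13 list genes, 11 were listed (Ighm and Ighd had no row). Their summed FPKM was 171 and 72.0 under the WT label against 313 and 123 under the KO label, led by Cd74 and by Blk, a kinase also present in some T cells, which was at 65.5 and 39.9 against 34.2 and 15.8. None of the 8 tested passed edgeR in vivo, where 1.1% of all genes did. At an unadjusted p under 0.05 there were 5 of the 8 (14.1% of all genes), DESeq2 called 2 (4.94% of all genes) and limma 0 (0.665%). In vitro 3 were tested, of which Cd79a and Cd79b rose by 0.98 (SE 0.30, edgeR adjusted p = 0.0246) and 0.90 (SE 0.21, adjusted p = 0.00574) and Cd74 fell by 1.06 (SE 0.23, adjusted p = 0.00405). The Cd79a call was lost in 4 of the 14 alternatives, and the calls of Cd79b and Cd74 in 1 each. Cd79a reached the expression filter in vitro only under the KO label (0.886 and 0.924 against 1.354 and 2.118 FPKM). In vivo the same held for Ms4a1 and another gene of the list, Fcer2a, which favours rises in these counts. Among 6 listed plasma cell genes Sdc1, which encodes the proteoglycan syndecan-1, fell in vivo from 11.8 and 8.84 FPKM to 1.32 and 0.640 (log2 fold change -3.41, SE 0.33, edgeR adjusted p = 0.0179). That call ended without WT replicate 2 (adjusted p = 0.0619, the highest of a range from 2.08e-22). Jchain, a defining gene of antibody-secreting cells, was at 0.451 and 0.198 against 1.12 and 1.27 FPKM. The part of such cells in the Pou2af1 values was not tested.

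**Figure D1:**
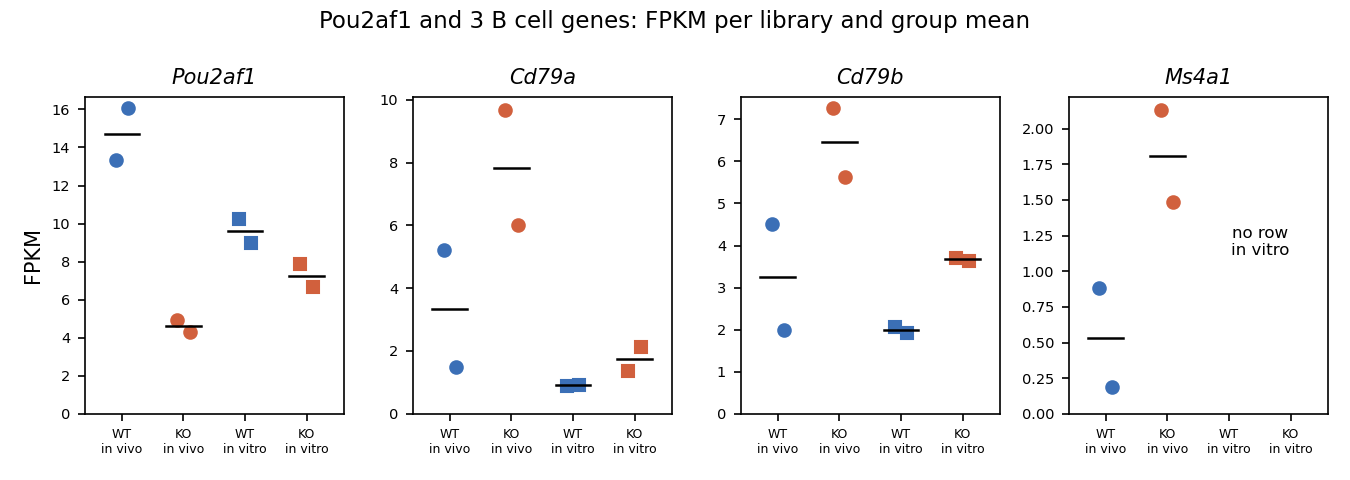
FPKM (linear axis from 0, a separate scale in each panel) of Pou2af1 and 3 B cell genes in each library, with circles for in vivo, squares for in vitro, blue for the WT label and orange for the KO label, and a line at each group mean of 2 libraries. Pou2af1 is lower under the KO label in vivo, at 4.93 and 4.31, where Cd79a, Cd79b and Ms4a1 are higher than in either WT-labelled library.

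The channel gene Trpm1 (chromosome 7, 64153835 to 64269775, plus strand) had the largest fall of the 5 genes tested in vitro. In vivo it had 1610 and 2090 counts under the WT label against 293 and 379 under the KO label, or 6.52 and 8.81 FPKM against 1.30 and 1.61. The groups did not overlap, and the mean was 5.27 times as high under the WT label (log2 fold change -2.41, SE 0.19, n = 2 per group). In vitro Trpm1 was more abundant, with 7934 and 5284 counts under the WT label against 3108 and 3894 under the KO label. That is 22.4 and 21.9 FPKM against 11.9 and 12.2, a mean 1.84 times as high under the WT label. Trpm1 fell in vitro by 0.86 on the log2 scale (SE 0.08, n = 2 per group), at an adjusted p of 1.79e-05 by the edgeR quasi-likelihood test, and kept this call in all 14 alternatives. The gene hosts the microRNA gene Mir211 in an intron (64205806 to 64205911, same strand), for which no row was listed. Of 7 melanocyte genes 2 were listed. Pmel was at 3.52 and 2.79 FPKM against 1.86 and 2.89 in vivo (log2 fold change -0.42, SE 0.27, edgeR adjusted p = 0.607) and rose in vitro by 0.99 (SE 0.14, adjusted p = 0.000348). Mitf was at 0.309 and 0.311 against 0.254 and 0.192 FPKM in vivo, lower under the KO label without overlap, and at 0.108 to 0.200 in vitro. The defining genes Tyr, Tyrp1, Dct, Mlana and Sox10 had no row in either system. The part of melanocyte RNA in the Trpm1 values was not tested.

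Kcnc1 (chromosome 7, 46396497 to 46438704, plus strand) was expressed at a low level. Its in vivo counts were 427 and 341 under the WT label against 58 and 37 under the KO label, or 2.70 and 2.24 FPKM against 0.402 and 0.244. The mean was 7.64 times as high under the WT label (log2 fold change -2.94, SE 0.26, n = 2 per group). Kcnc1 reached the expression filter in vivo only under the WT label, so it could enter that comparison only as a fall. In vitro it had 56 and 73 counts under the WT label against 70 and 87 under the KO label, at 0.247 to 0.472 FPKM, and the groups overlapped. It did not reach the minimum of 1 FPKM in 2 libraries that a gene needed for the test there. Without that filter its log2 fold change was 0.27 (SE 0.29, edgeR adjusted p = 0.50). Of 9 neuronal genes 3 were listed in vivo, with a summed FPKM of 5.16 and 7.12 under the WT label against 2.64 and 1.47 under the KO label, nearly all from the tubulin gene Tubb3, while Snap25, Syt1 and Rbfox3 had no row. The part of this difference in the Kcnc1 values was not tested.

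Lysmd2 (chromosome 9, 75625741 to 75637771, plus strand) had 674 and 770 counts in vivo under the WT label against 204 and 231 under the KO label. Its FPKM were 26.1 and 31.0 against 8.66 and 9.35, with no overlap and a mean 3.17 times as high under the WT label (log2 fold change -1.67, SE 0.14, n = 2 per group). In vitro its FPKM were 21.1 and 24.2 under the WT label against 11.5 and 16.3 under the KO label. The groups again did not overlap, although the 2 KO-labelled libraries differed from each other more than the WT-labelled ones. Lysmd2 fell in vitro by 0.66 on the log2 scale (SE 0.15), at an adjusted p of 0.00493 by edgeR. The fall was 0.44 without KO replicate 1 and 0.94 without KO replicate 2, with an adjusted p between 8.65e-08 and 0.0272 over all alternatives.

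Of the genes for surface and secreted proteins, Susd2 (chromosome 10, 75636706 to 75644008, minus strand) had 1376 and 1238 counts in vivo under the WT label against 413 and 332 under the KO label. Its FPKM were 23.9 and 22.4 against 7.87 and 6.04, a mean 3.33 times as high under the WT label (log2 fold change -1.74, SE 0.15, n = 2 per group). In vitro it was at 1.05 and 1.48 FPKM under the WT label against 1.77 and 1.86 under the KO label, with the KO-labelled libraries higher and no overlap. The log2 fold change of 0.57 (SE 0.22, normal-approximation 95% interval 0.15 to 0.99) did not pass the edgeR test (adjusted p = 0.057). It passed without WT replicate 2 (adjusted p = 0.0116), and the range over all alternatives was 0.0116 to 0.404.

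Spock2 (chromosome 10, 60106219 to 60135198, plus strand) had 1043 and 1339 counts in vivo under the WT label against 290 and 337 under the KO label. Its FPKM were 11.3 and 15.04 against 3.43 and 3.81, a mean 3.63 times as high under the WT label (log2 fold change -1.87, SE 0.17, n = 2 per group). In vitro its level was low, with 60 and 45 counts under the WT label against 64 and 63 under the KO label, at 0.452 and 0.498 against 0.652 and 0.524 FPKM. It was below the expression filter in vitro. Without the filter the log2 fold change was 0.31 (SE 0.25, edgeR adjusted p = 0.368).

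Myl1 (chromosome 1, 66924295 to 66945404, minus strand) showed the largest fall by size among all 5211 falls in vivo, from a low level. It reached the expression filter only under the WT label, so it could enter that comparison only as a fall. It had 72 and 79 counts under the WT label against 2 and 4 under the KO label, or 2.07 and 2.37 FPKM against 0.0632 and 0.121 (log2 fold change -4.54, SE 0.41, n = 2 per group). The WT-to-KO ratio of counts per total was 24.4, with an exact 95% binomial interval of 10.9 to 67.5 that covers counting error only. In vitro Myl1 had no row. Of 16 skeletal muscle genes 6 were listed in vivo, with a summed FPKM of 17.4 and 18.3 under the WT label against 14.6 and 16.8 under the KO label, which do not overlap. The light chain gene Mylpf made up most of this at 13.1 and 12.9 against 9.62 and 12.9 FPKM, Acta1 and Ckm were below 1 FPKM in every library, and Myh1, Myh2, Myh4, Myod1 and Myog had no row. Mb went the other way from the sum, at 0.441 and 0.333 against 0.746 and 0.670 FPKM, without overlap. Des was at 0.653 and 0.464 against 0.977 and 0.533 FPKM, with overlap. The troponin gene Tnnt3 was at 2.45 and 3.65 against 2.32 and 2.01 FPKM in vivo (log2 fold change -0.50, SE 0.28, edgeR adjusted p = 0.533) and rose in vitro by 1.73 (SE 0.25, adjusted p = 0.000309). The part of muscle RNA in the Myl1 values was not tested.

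**Figure D2:**
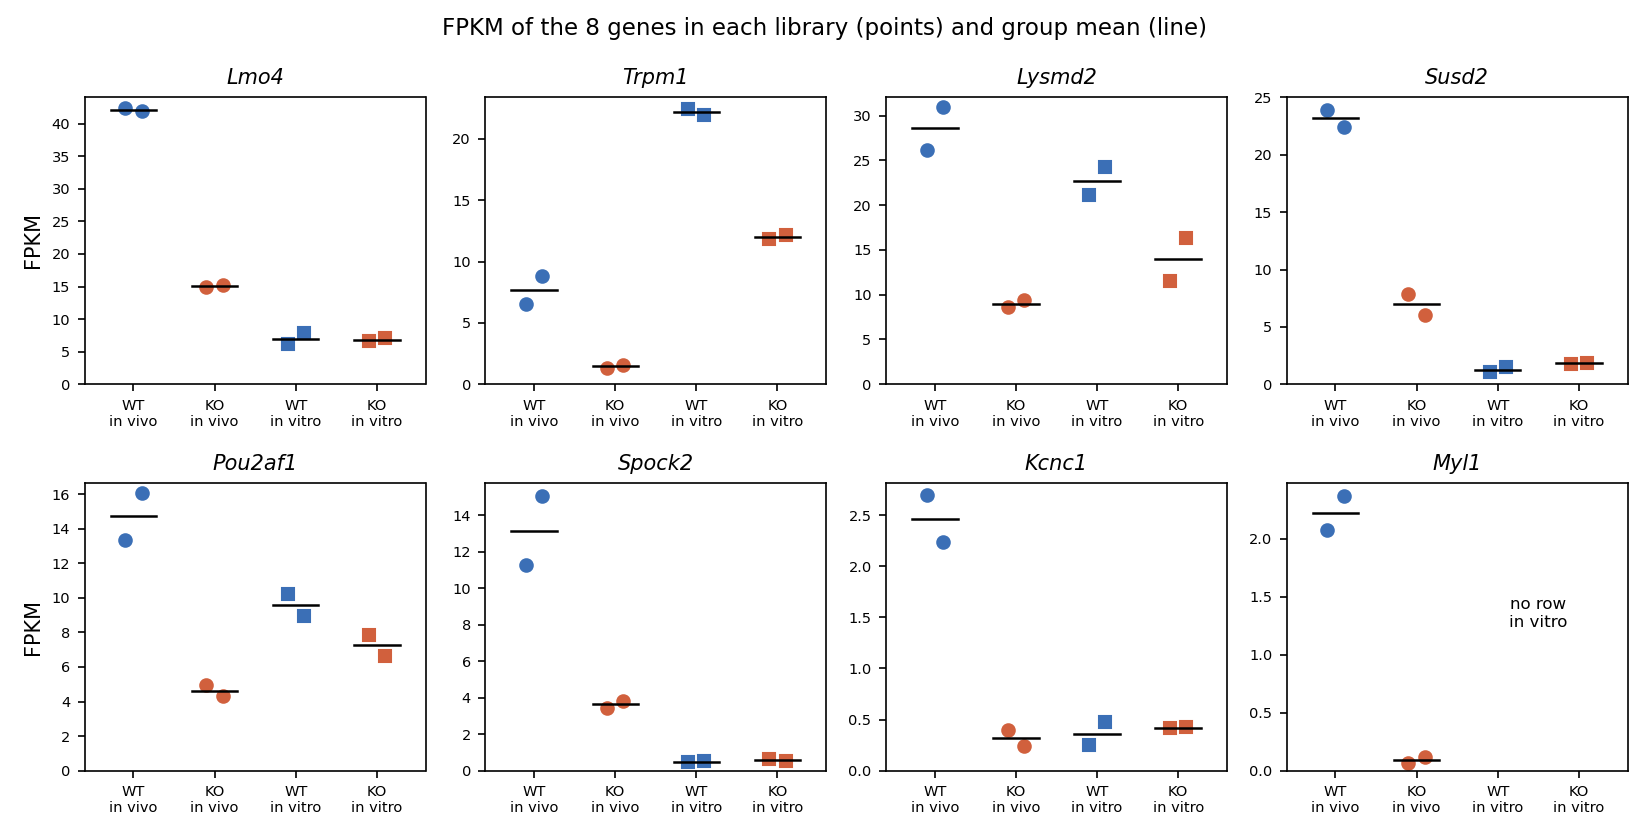
FPKM (linear axis from 0, a separate scale in each panel) of each of the 8 genes in every library, with circles for in vivo, squares for in vitro, blue for the WT label and orange for the KO label, and a line at each group mean of 2 libraries. In vivo the KO-labelled libraries are below the WT-labelled ones for every gene, as the choice of genes requires, whereas in vitro they are clearly lower for Trpm1 and Lysmd2 and at the same level for Lmo4.

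Set side by side, the in vivo groups did not overlap for any of the 8 genes, a pattern with the KO-labelled libraries lower that 21.4% of the 10227 genes tested in vivo showed. The choice of the genes fixes this count. Of the 10227, 1.1% passed the edgeR threshold of an adjusted p under 0.05 in either direction, 0.821% as falls and 0.284% as rises. Without KO replicate 1, the library with the high myeloid sum, the log2 fold changes of the 8 genes ran from -1.49 for Lmo4 to -4.18 for Myl1. The falls that ranked among the first 12 but are not described here were Lag3, Prr5l, Adam12 and Epas1. The last gene inside the range, Spock2, had a log2 fold change of -1.87 (SE 0.17), and the next gene by p, Myo1e, had -1.26 (SE 0.12).

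In vitro, 7 of the 8 genes were listed and 5 passed the expression filter. Of these 5, Trpm1, Lysmd2 and Pou2af1 fell and none rose by edgeR, where 17.7% of all 9658 tested genes fell and 20.1% rose. The count was 2 to 4 of 5 across the alternatives. The median log2 fold change of the 5 was -0.39, against 0.00 over all tested genes. Of the 7 listed genes, 3 were lower without overlap under the KO label, where 34.4% of all listed rows were, and 2 were higher without overlap (Susd2 and Spock2), where 33.7% were. For the 3 genes that fell in both systems the in vitro fold was the smaller one in each case, 1.84 against 5.27 for Trpm1, 1.63 against 3.17 for Lysmd2 and 1.33 against 3.19 for Pou2af1. This difference was not tested, because the in vivo values chose the genes.

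**Figure D3:**
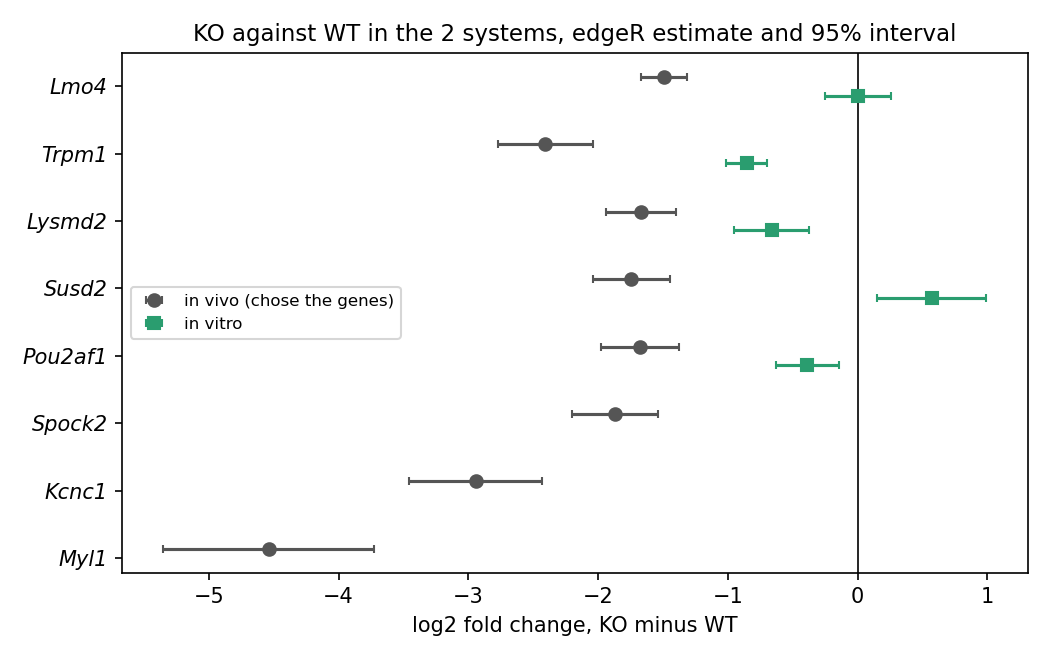
Log2 fold change (KO minus WT label, edgeR estimate) of the 8 genes in vivo (grey circles) and of the 5 genes tested in vitro (green squares). Bars are normal-approximation 95% intervals from the SE and are narrower than the F test implies. The in vivo contrast chose the genes, so its bars are a description only. In vitro Trpm1, Lysmd2 and Pou2af1 lie below 0, Lmo4 lies at 0.00 and Susd2 at 0.57, while Spock2, Kcnc1 and Myl1 have no in vitro point because they were below the expression filter or not listed.

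The 2 systems also ordered the levels of these genes differently. Tables of the systems were normalized separately, so the FPKM are given as levels without a test. Lmo4 ran from a mean of 42.1 ± 0.307 FPKM (SD, n = 2) in the WT-labelled agonist-p cells through 15.1 ± 0.166 under the KO label in vivo to 6.98 ± 1.18 and 6.82 ± 0.340 in vitro (WT label, then KO label), and the last 2 of these did not differ beyond their spread. Susd2 and Spock2 had the same order of systems, with WT means of 23.2 ± 1.09 and 13.2 ± 2.67 FPKM in vivo against 1.27 ± 0.300 and 0.475 ± 0.0325 in vitro. Kcnc1 was at 2.47 ± 0.323 FPKM in the WT-labelled agonist-p cells, and its other 3 group means, from 0.323 to 0.420, lay within the spread of the in vitro WT label. Trpm1 had the reverse order, with 22.2 ± 0.342 and 12.0 ± 0.200 FPKM in vitro above 7.67 ± 1.62 and 1.45 ± 0.215 in vivo. Lysmd2 had WT means of 28.6 ± 3.47 in vivo and 22.7 ± 2.23 in vitro, with KO means of 9.01 ± 0.492 and 13.9 ± 3.38. For Pou2af1 the WT means were 14.7 ± 1.93 and 9.61 ± 0.896, and the KO means 4.62 ± 0.438 and 7.25 ± 0.849.

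The 5 genes with the profile most like that of Lmo4 were found among 9364 genes tested in both systems, by the root mean square difference of log2 CPM over the 8 libraries after each system's mean was removed. They were Bmf (0.113), which encodes a pro-apoptotic BH3-only protein, Klhdc2 (0.152), a substrate receptor of a cullin ubiquitin ligase, the chondroitin sulfotransferase gene Chst3 (0.176), Exoc3l (0.181) and Mctp1 (0.196). Bmf was at 8.22 and 10.2 FPKM in vivo under the WT label against 3.68 and 3.52 under the KO label, and in vitro at 11.6 and 13.7 against 10.7 and 12.3. Klhdc2 was at 37.1 and 45.9 against 15.5 and 16.2 in vivo and at 19.3 and 20.7 against 17.0 and 15.7 in vitro, where it was lower under the KO label without overlap (log2 fold change -0.27, SE 0.09). Their in vivo log2 fold changes were -1.37 (SE 0.14) and -1.40 (SE 0.13), close to that of Lmo4. Among the other genes described here Susd2 was the closest to Lmo4, at rank 16 with a difference of 0.228, followed by Pou2af1 at rank 18, Lysmd2 at 41 and Trpm1 at 926. These genes were chosen for the likeness, so no test applies.

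**Figure D4:**
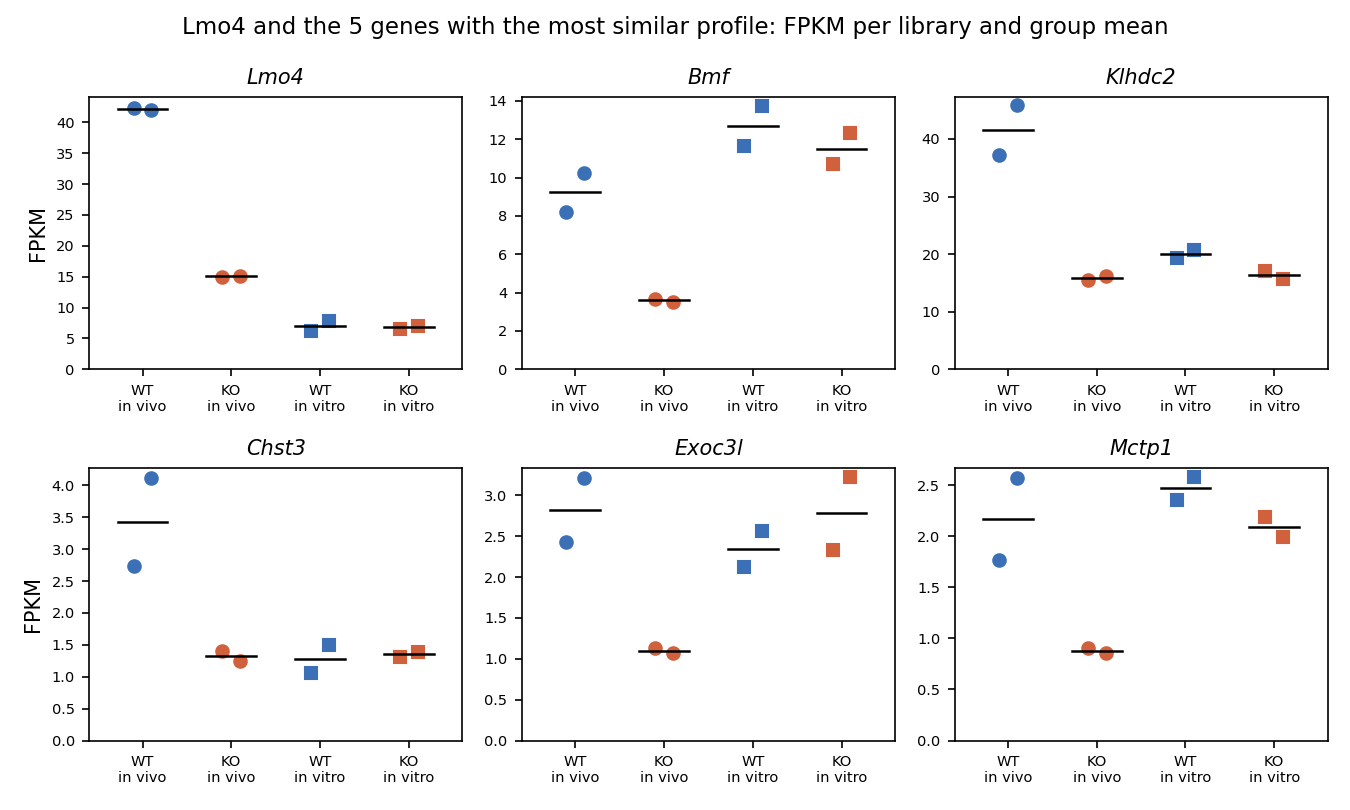
FPKM (linear axis from 0, a separate scale in each panel) of Lmo4 and of the 5 genes with the smallest root mean square difference from it, with circles for in vivo, squares for in vitro, blue for the WT label, orange for the KO label and a line at each group mean of 2 libraries. In vivo all 6 genes are lower under the KO label, Lmo4 at 14.9 and 15.2 against 42.4 and 41.9, and in vitro the labels overlap for Lmo4, Bmf, Chst3 and Exoc3l, while Klhdc2 and Mctp1 are lower under the KO label without overlap.

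Partners and relatives of the 8 genes were read from 8 lists with 81 genes in all. In vivo 40 of them were tested and none passed the edgeR threshold, against 1.1% of all genes. At an unadjusted p under 0.05 there were 7, where 14.1% of all genes were, and limma called 0. DESeq2 called 4, where it called 4.94% of all genes: Gata3 was higher and Ssbp3, Lyl1 and Susd4 were lower under the KO label. The median log2 fold change was 0.03. In vitro 34 were tested, of which 15 rose and 3 fell, or 52.9% against 37.8% of all genes called in either direction, with a median of 0.30 against 0.00. Of the genes that rose, Brca1 and Kcnh3 reached the expression filter only under the KO label. In vivo, Susd4 reached it only under the WT label.

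In the list of LIM-only proteins, the LDB1 complex and known LMO4 partners, 5 of 10 tested genes rose in vitro and none fell, where 20.1% of all genes rose and 17.7% fell. The T cell lineage factor Gata3 rose by 1.66 (SE 0.10, edgeR adjusted p = 1.17e-06), the LDB1-binding proteins Ssbp3 and Ssbp4 by 0.49 (SE 0.09, adjusted p = 0.00142) and 0.43 (SE 0.09, adjusted p = 0.00234), and the DNA repair gene Brca1 by 0.96 (SE 0.19, adjusted p = 0.00217). Brca1 reached the expression filter in vitro only under the KO label (0.571 and 0.610 against 1.255 and 1.004 FPKM). Lyl1, below the filter in vitro, was lower under the KO label without overlap (0.574 and 0.512 against 0.305 and 0.295 FPKM). In vivo none of 12 passed. Ssbp3 was at 36.3 and 39.5 FPKM under the WT label against 25.3 and 24.6 under the KO label (log2 fold change -0.61, SE 0.10, edgeR adjusted p = 0.0588), and Gata3 at 41.3 and 43.3 against 63.9 and 62.9 (0.58, SE 0.10, adjusted p = 0.0589). Ldb1, the cofactor that LMO4 binds, rose in vitro by 0.38 (SE 0.09, edgeR adjusted p = 0.00907) from 91.5 and 94.4 to 112 and 125 FPKM. Without KO replicate 2 that call ended (adjusted p = 0.07, the highest of a range from 5.56e-05). Ldb1 was at 132 and 138 against 115 and 135 FPKM in vivo (-0.12, SE 0.12, adjusted p = 0.762). Of the octamer factors that POU2AF1 binds, Pou2f2 fell in vitro by 0.72 (SE 0.13, edgeR adjusted p = 0.00158) from 3.30 and 3.26 to 1.70 and 2.21 FPKM. In vivo Pou2f2 was at 2.55 and 2.83 against 2.53 and 2.87 FPKM.

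Of the potassium channel list 4 of 7 tested genes rose in vitro and 2 fell, against 20.1% and 17.7% of all genes, and none of 7 passed in vivo, against 1.1%. Kcnh3, among those that rose, reached the expression filter in vitro only under the KO label (0.702 and 0.744 against 1.322 and 1.248 FPKM). Kcnh2, a voltage-gated channel, rose by 0.98 (SE 0.10, edgeR adjusted p = 2.57e-05), the calcium-activated channel Kcnn4 by 0.59 (SE 0.08, adjusted p = 0.000218) and the subunit Kcnab2 by 0.56 (SE 0.08, adjusted p = 0.000312), while Kcnq5 fell by 0.75 (SE 0.12, adjusted p = 0.000626). Of the TRPM channels none of 1 tested in vitro or of 3 tested in vivo passed, and Trpm7 was at 12.6 to 18.9 FPKM in all libraries. Among LysM proteins Lysmd1, Lysmd3 and Ncoa7 rose in vitro by 0.49 to 0.51 and none of 5 passed in vivo. The sushi gene Susd3 rose in vitro by 0.54, and in vivo Susd4 was at 1.44 and 1.24 FPKM against 0.407 and 0.518 (-1.54, SE 0.27, edgeR adjusted p = 0.0678). Of the myosin chains Myl12b and Myh9 rose in vitro by 0.71 and 0.33, and none of 7 passed in vivo. These 6 in vitro calls, from Lysmd1 to Myh9, were each lost in 3 to 6 of the 14 alternatives. No gene of the SPARC and testican list, the relatives of Spock2, passed the expression filter in either system.

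Positions in the genome were compared last, with GENCODE M21 gene models on GRCm38. Trpm1 and Kcnc1 share chromosome 7 at a distance of 17.7 Mb, Lysmd2 and Pou2af1 share chromosome 9 at 24.4 Mb, and Susd2 and Spock2 share chromosome 10 at 15.5 Mb. The nearest tested gene on each side of each of the 8 gave 16 neighbours. None of the 16 passed the edgeR threshold in vivo, against 1.1% of all genes, with 7 at an unadjusted p under 0.05, where 14.1% of all genes were, and 0 past the threshold with limma. All 7 were lower under the KO label. They included both neighbours of Susd2 (log2 fold change -0.80 for Ggt5 and -0.40 for Cabin1). Both neighbours of Myl1 were also among them (-0.50 for Acadl and -0.37 for Lancl1). DESeq2, which called 4.94% of all genes, called 3 of the 16, or 18.8%. These were Chst3, Cabin1 and Acadl, the neighbours of Spock2, Susd2 and Myl1, all lower under the KO label. In vitro 15 were tested, of which 5 rose and 3 fell, or 53.3% against 37.8% of all genes.

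Mtmr10, a myotubularin-related gene 17.9 kb beyond Trpm1, fell in vitro by 0.63 (SE 0.14, n = 2 per group, edgeR adjusted p = 0.00484), from 2.98 and 2.98 to 2.17 and 1.63 FPKM. In vivo it was at 2.33 and 2.89 FPKM under the WT label against 1.55 and 1.71 under the KO label, with a log2 fold change of -0.69 (SE 0.17) that did not pass (adjusted p = 0.133). On the other side of Trpm1, Klf13 rose in vitro by 0.66 (SE 0.09, edgeR adjusted p = 0.000192). Chst3, 46.3 kb from Spock2, was at 2.73 and 4.12 against 1.40 and 1.25 FPKM in vivo (log2 fold change -1.38, SE 0.23, edgeR adjusted p = 0.0636), and it is also among the genes most like Lmo4. Arhgap20, a GTPase-activating protein gene 525 kb from Pou2af1, fell in vitro by 1.32 (SE 0.09, edgeR adjusted p = 2.55e-06). In vivo the replicates of each label were far apart, at 5.30 and 10.5 against 2.0 and 3.97 FPKM, and it did not pass (log2 fold change -1.42, SE 0.41, edgeR adjusted p = 0.183). The neighbours of Lmo4, Pkn2 and Hs2st1, lie 1307 and 224 kb away and did not pass in either system.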

How the data were processed

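The authors deposited 1 table per library with a whole-number count and an FPKM value per gene. Per the submitters' processing notes the build was mm10, and featureCounts from Subread, RSEM, Bowtie2, Trim Galore 0.4.4 and DESeq2 were used, with no roles given. Annotation, strand setting and row filter are not stated, and without strand antisense reads cannot be told apart. Counts were tested with the edgeR 4.0.16 quasi-likelihood test (R 4.3.3, TMM, two-sided) on each system's 4 libraries, for genes that reached 1 FPKM in 2 or more libraries. A gene below 1 FPKM in a whole group could pass only through the group where it was higher. This favours calls in that direction. P-values were adjusted by Benjamini-Hochberg over all tested genes, with a threshold of 0.05. Each SE was obtained as the absolute log2 fold change divided by the root of F. Intervals of fold changes use the normal approximation and are narrower than the few degrees of freedom of the F test imply. The members and lists were chosen with earlier results of these data known. Genes named are the 8, Bcl6, falls next to them by p, nearest tested neighbours, the 5 most like Lmo4, up to 4 per partner list and the leading genes of marker lists; others were named after their values were seen. On simulated data the test recovered 92 of 96 genes changed 2-fold among 9658 in vitro, with 7 false calls, and 93 of 101 among 10227 in vivo, with 11. The simulated libraries were drawn independently, with a spread set by expression level alone. They held no spread particular to a gene or shared by same-numbered libraries. The recovery therefore does not measure power on the real libraries. Replicates differed beyond sampling noise (chi-square per degree of freedom, 9.4 to 19.1), so each library counted once. Alternatives were limma 3.58.1 on log2(FPKM + 1) and log2(FPKM + 0.1), DESeq2 1.42.0, other scalings and filters, all 8 libraries, a replicate block and the removal of each library in turn. Total counts and exact binomial intervals describe counting error only.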

Additional observations from a re-analysis of the deposited data

Results flagged for a closer look

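Susd2 and Spock2 were lower under the KO label in vivo and higher in vitro, without overlap in either system. They were 2 of the 7 genes listed in vitro. Of all rows listed in vitro, 33.7% were higher under the KO label without overlap, so this count is near the share over all genes. Susd2 was lower under the KO label in vivo, while in vitro its mean FPKM under the KO label was 1.44 times that under the WT label. Spock2 was also lower in vivo, and its in vitro ratio was 1.24, at 0.452 to 0.652 FPKM. Its nearest WT- and KO-labelled libraries in vitro were close, at 0.498 and 0.524 FPKM. The difference between systems was not tested, because the in vivo values chose the genes, and neither in vitro value passed the edgeR test.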

How the results depend on the processing

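Each group has 2 libraries, so 1 library can decide a call. The number of genes called in vivo was 113 and moved to 505 in DESeq2, to 68 and 75 when limma took log2(FPKM + 1) and log2(FPKM + 0.1), 545 with all 8 libraries in one fit and 1078 with the replicate block, and it ranged from 7 to 279 without 1 replicate (7 and 191 with WT replicate 2 or 1 left out, 21 and 279 with KO replicate 1 or 2 left out). The split was 29 risen and 84 fallen, but 260 and 245 with DESeq2, 266 and 279 with all 8 libraries, 607 and 471 with the block and 193 and 86 without KO replicate 2. The cause was not tested. In vitro the count was 3649, from 2464 to 4997 over 14 alternatives.

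The in vivo log2 fold changes of the 8 genes kept their sign in all alternatives that gave a value. The genes were chosen as falls in these same libraries, so the kept sign is no support for the falls. Lmo4 ran from -1.51 to -1.43 and Lysmd2 from -1.79 to -1.54. The low-expressed Kcnc1 and Myl1 shrank to -1.39 and -1.56 on log2(FPKM + 1), because the added 1 is large beside their FPKM. Myl1 ran from -5.05 to -4.18 without 1 replicate and could not be fitted with all 8 libraries. In vitro the sign of Lmo4 was not determined: it was 0.00 in the main test, -0.00278 with DESeq2, -0.0216 without a filter, -0.0103 with the other filter, -0.0226 and -0.0245 with limma, -0.00206 with all 8 libraries, and -0.17 to 0.18 without 1 replicate (-0.17 without WT replicate 1, -0.05 without KO replicate 2).

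The labels do not say that equal replicate numbers mark a shared animal or day. Deviations of same-numbered libraries correlated at 0.459 in vivo and -0.305 in vitro, over genes. With the replicate block the in vitro count was 3159, and 3 of the 8 genes passed. In vivo the block called 7 of 8 B cell genes (6 higher under the KO label), 6 of 16 neighbours, 8 of 40 partner and family genes, 22 of 23 proliferation genes and 6 of the 16 tested genes of the stromal, erythroid, gamma delta, NKT and regulatory lists, where it called 1078 of all 10227. With the numbers crossed in vitro, a choice made after seeing the data, it was 4997, and 4 passed.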

Other observations

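The remaining marker lists gave these values. In vivo, 5 listed stromal genes summed to 22.3 and 26.8 FPKM under the WT label against 20.6 and 20.8 under the KO label. The sums of 4 erythroid genes were 2.92 and 2.11 against 6.10 and 2.24. The sums of 2 gamma delta T cell genes were 86.5 and 55.2 against 82.5 and 47.2, but these genes went opposite ways. Sox13 was at 21.0 and 15.4 against 48.4 and 31.4 FPKM, and Blk at 65.5 and 39.9 against 34.2 and 15.8. Trdc, Tcrg-C1, Tcrg-C2 and Tcrg-C4 had no row. In vivo, 7 genes of NKT and innate-like T cells summed to 245 and 164 against 259 and 234, and 6 regulatory T cell genes to 128 and 187 against 90.7 and 146. By edgeR 0 of the 16 tested genes of these 5 lists passed in vivo (1.1% of all genes), with 5 at an unadjusted p under 0.05 (14.1%). DESeq2 called 3 of the 16, or 18.8% (4.94% of all genes), and limma 0 (0.665%). In vitro the stromal genes summed to 15.7 and 17.7 FPKM under the WT label against 29.9 and 28.5 under the KO label. Nearly all of this came from Epcam and Pecam1, while Psmb11, Aire and Col1a1 were at or below 0.24 FPKM. Krt5, Krt8, Krt14, Foxn1 and Pdgfra had no row in either system. Epcam and Pecam1 rose in vitro by 0.74 and 0.87 on the log2 scale (edgeR adjusted p = 0.00241 and 5.77e-05). The regulatory T cell gene Foxp3 was at 0.296 to 0.468 FPKM in vitro, below the expression filter. The regulatory T cell genes summed to 151 and 155 against 97.3 and 97.7, mostly from Ikzf2 (115.8 and 122.5 against 74.65 and 70.61). Of these Il2ra and Ikzf2 fell by 1.98 and 0.69 (edgeR adjusted p = 2.23e-06 and 0.000541) and Ctla4 rose by 0.68 (adjusted p = 0.048), a call lost in 8 of the 14 alternatives. These 5 were the genes that edgeR called among the 9 tested in vitro from these lists, or 55.6% against 37.8% of all genes.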
